A study of Mus musculus with 8 samples.

Results

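The genes described here encode the proteins of the mitochondrial ribosome, taken as every gene whose symbol on the array begins with Mrpl or Mrps followed by a number. The arrays measured 77 such genes among 19933 genes in all, 48 of them Mrpl genes (large subunit by symbol) and 29 Mrps genes (small subunit by symbol). Where a gene had several probe sets the brightest was used. Membership follows from the symbol alone. All 77 lay above the median level of the genes measured.

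Left ventricular RNA was hybridised to Affymetrix mouse gene arrays, which read each transcript as a fluorescence intensity on a linear scale. There were 2 PlGF arrays, 3 arrays labelled PlGF/RGS4 and 3 control arrays, all from C57/Bl6 mice of 11 weeks. In the PlGF and PlGF/RGS4 lines a Tet-OFF system, in which the αMHC promoter drives the tTA activator in cardiomyocytes, had expressed placental growth factor (PlGF) alone or PlGF with RGS4 for 6 weeks, after doxycycline was withdrawn at 5 weeks of age. Control mice were littermates that inherited 1 transgene only. PlGF is an angiogenic growth factor, and RGS4, a regulator of G protein signaling, was added in the study as a brake on the growth of the myocardium. The labels call the arrays biological replications and give no sex.

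The transcript of the targeted gene was read first. Pgf, which encodes PlGF, had an intensity of 4136 and 917 on the PlGF arrays, against 211, 349 and 387 on the control arrays. On the arrays labelled PlGF/RGS4 Pgf read 300.0, 229 and 211, none of them above the highest control, and Rgs4 read 234, 187 and 229 there, against 209.5, 277 and 282 in control. The labels of this group are therefore not borne out by either transcript, and whether the probe sets read the transgene transcripts is not given in the sources used here. Each direction given below for this group is that of the arrays labelled PlGF/RGS4. PlGF replicate 1 stood apart, with a mean correlation of 0.976 with the other arrays over all genes, whereas the other 7 arrays had 0.992 to 0.993. Xist was low on PlGF replicate 1, PlGF/RGS4 replicate 2 and control replicate 2 and high on the other 5 arrays, so that each group holds both sexes.

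Mitochondria keep their own ribosome, which translates the membrane proteins of the respiratory chain that are encoded on mitochondrial DNA. Its RNA comes from mitochondrial DNA, whereas all its proteins are encoded in the nucleus, made in the cytosol and imported. About the bacterial core, the mammalian particle has gained many proteins with no bacterial counterpart. Heart muscle lives largely on oxidative phosphorylation, and inherited defects of several of these proteins cause cardiomyopathy in humans.

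Most transcripts of the mitochondrial ribosomal proteins read lower in the PlGF hearts than in control hearts, by small amounts. The difference between group means in log2 units, PlGF over control, had a median of −0.20 over the 77 members, where that of all 19933 genes was −0.029, and 68 members were below 0 and 9 above it. Set against the mean of the controls, the median member stood at −0.22 and −0.13 on the PlGF arrays and at −0.050, −0.011 and −0.038 on the arrays labelled PlGF/RGS4, against 0.028, −0.027 and −0.00017 on the control arrays. Both PlGF arrays thus lay below the range of the other 6. In one fit of limma to all 8 arrays with 3 group means, 6 members fell and none rose at a Benjamini-Hochberg adjusted p under 0.05 over all genes, and 71 did not pass; over all genes 2.53% passed, 0.748% lower and 1.79% higher. At an unadjusted p under 0.05, 44 members were lower in PlGF (11.7% of all genes) and 1 was higher (10.9% of all genes).

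**Figure D1:**
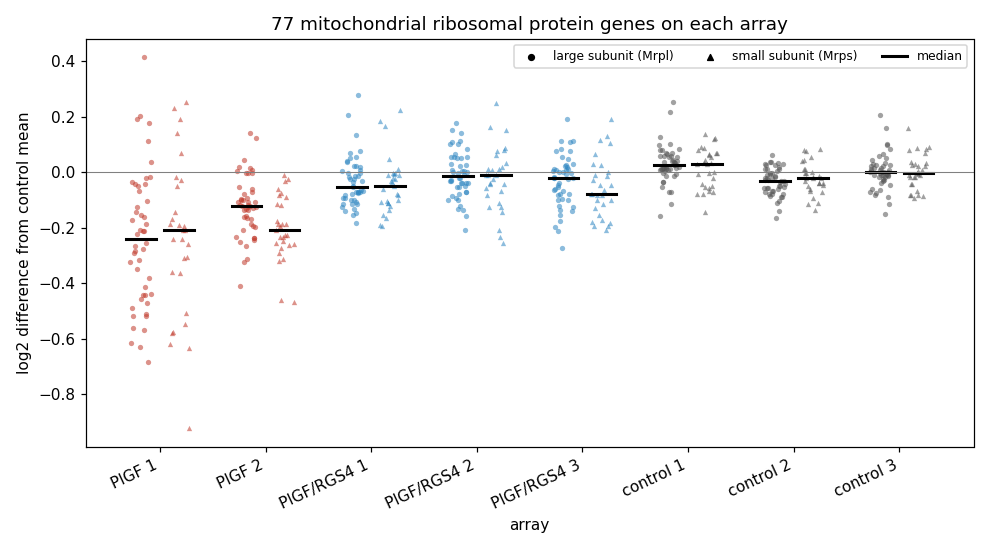
Each point is 1 of the 77 genes on 1 array, as the log2 difference of its intensity from the mean of the 3 control arrays, with large subunit genes as circles and small subunit genes as triangles; black bars are medians. The medians of both PlGF arrays lie below those of the 6 other arrays, and PlGF replicate 1 has the widest spread of members.

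For 48 of the 77 members both PlGF arrays were below every control array, which held for 19.5% of all genes. Both were above every control array for 2 members, Mrpl27 and Mrpl54, against 14.3% of all genes. Among the 9966 genes above the median level, a closer yardstick for members that all lie there, 24.5% had both PlGF arrays below the controls, 1.19% fell and 16.9% were lower at an unadjusted p under 0.05. The members had 62.3% in the first of these measures.

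Markers of leukocytes were high in the same hearts. All 15 leukocyte markers (Ptprc, Cd68, Cd3e, Cd74 and others) had both PlGF arrays above every control array (14.3% of all genes). Of the 15, 9 rose (1.79% of all genes). Their summed intensity was 26888 and 12556 on the PlGF arrays and 5113 to 6143 on the arrays labelled PlGF/RGS4, against 5915 to 6199 on the control arrays. The sum of 10 cardiomyocyte markers was 107397 and 119006 on the PlGF arrays and 118746 to 119028 on the arrays labelled PlGF/RGS4, against 120611 to 122986 on the control arrays, and none of the 10 passed the test in PlGF versus control. The arrays labelled PlGF/RGS4 were thus as low in this sum as PlGF replicate 2. Of the 10, 9 had negative changes in PlGF versus control and 2 were lower at an unadjusted p under 0.05 (11.7% of all genes). In PlGF/RGS4 versus control 7 were negative and 1 was lower at that threshold (2.28% of all genes). Markers of other cell types went both ways. Of 8 endothelial markers 5 had positive and 3 negative changes in PlGF versus control. Among the 8, 1 passed, higher, and 4 were higher at an unadjusted p under 0.05 (10.9% of all genes). Their sums were 16542 and 15898 on the PlGF arrays, against 13631 to 14075 on the control arrays. Of 7 fibroblast markers 4 had positive and 3 negative changes. In limma 0 passed and 3 were higher at the unadjusted threshold (sums of 14078 and 11161 on the PlGF arrays, against 10987 to 11462 on the control arrays). Of 6 smooth muscle and pericyte markers 4 had positive and 2 negative changes. Among the 6, 1 passed, higher, and 2 were higher at the unadjusted threshold (sums of 9813 and 7535 on the PlGF arrays, against 7959 to 8874 on the control arrays). The fibroblast and smooth muscle sums were above all controls on PlGF replicate 1 and not on replicate 2. In tissue RNA, fewer cells of a type and less RNA per cell cannot be told apart, and the part of leukocyte, endothelial, fibroblast or smooth muscle RNA in the values of the ribosomal proteins was not tested.

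Of the 6 members that fell, Mrps35 did so by the most. This mitochondrion-specific protein of the small subunit read 427 and 588 on the PlGF arrays and 709, 742 and 708 on the arrays labelled PlGF/RGS4, against 773, 853 and 803 on the control arrays. No PlGF array reached the range of the others, and replicate 1 was well below replicate 2. The log2 fold change, PlGF versus control, was −0.69 ± 0.12 (SE), with an adjusted p of 0.0403 in limma.

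Mrps30 carries a small subunit symbol, but structures of the mammalian particle place its protein in the large subunit. It read 196 and 212 on the PlGF arrays and 263, 254 and 254 on the arrays labelled PlGF/RGS4, against 304, 267 and 310 on the control arrays. The 3 groups formed 3 separate steps, with the arrays labelled PlGF/RGS4 in the middle. The change in PlGF versus control was −0.52 ± 0.076 (limma, adjusted p = 0.0247), and that in PlGF/RGS4 versus control was −0.19 ± 0.068 (adjusted p = 0.945). Mrps31, another mitochondrion-specific small subunit protein, had the same order, with 419 and 521 on the PlGF arrays and 598, 596 and 607 on the arrays labelled PlGF/RGS4, against 680.2, 629 and 643 on the control arrays. Its change in PlGF versus control was −0.48 ± 0.090 (limma, adjusted p = 0.0438).

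The 3 large subunit genes that fell all have bacterial counterparts. Mrpl4, whose bacterial homologue lines the tunnel through which the new peptide leaves, read 1233 and 1259.8 on the PlGF arrays and 1596, 1630.0 and 1584 on the arrays labelled PlGF/RGS4, against 1596, 1704 and 1728 on the control arrays. Its PlGF replicates were within a few percent of each other, in contrast to those of Mrps35. The change in PlGF versus control was −0.43 ± 0.053 (limma, adjusted p = 0.0178). Mrpl30 read 1785 and 1877 on the PlGF arrays and 2062, 2175 and 2203 on the arrays labelled PlGF/RGS4, against 2249.9, 2216 and 2236 on the control arrays. The groups did not overlap, and the change in PlGF versus control was −0.29 ± 0.052 (limma, adjusted p = 0.0416). Mrpl55, the counterpart of bacterial protein L31, read 799.8 and 845 on the PlGF arrays and 924, 960.2 and 957 on the arrays labelled PlGF/RGS4, against 1002, 981 and 1006 on the control arrays. Its change was −0.28 ± 0.049 (limma, adjusted p = 0.0402), again with no overlap between the groups.

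**Figure D2:**
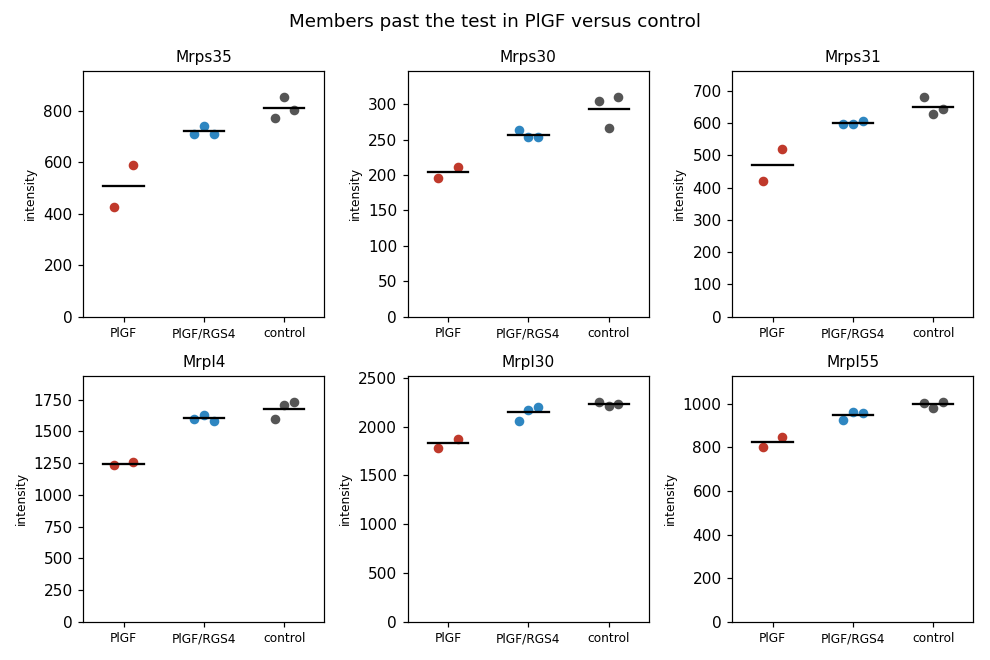
Intensity on a linear axis from 0 (points, 1 per array) and group mean (bars) of the 6 members with an adjusted p under 0.05 in PlGF versus control. For each gene both PlGF arrays lie below all 6 other arrays, and the PlGF replicates are far apart for Mrps35 (427 and 588) and close for Mrpl4 (1233 and 1259.8).

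These calls rest on few arrays and on the shared estimate of the spread. Leaving out a PlGF array leaves 1 array in that group. The member median was then −0.13 without replicate 1 and −0.22 without replicate 2, against −0.0070 and −0.037 over all genes. Without any 1 of the other 6 arrays 0 or 1 members passed, and 17 to 61 of all 19933 genes. The member median stayed between −0.13 and −0.22 throughout. A fit of the PlGF and control arrays alone called 0 of the 77, and 0 of all genes, with 35 members lower and 1 higher at an unadjusted p under 0.05 in limma. With sex, read from Xist, as a block, Mrpl4, Mrps30 and Mrps31 passed (limma, adjusted p = 0.0236, 0.0201 and 0.0438) and Mrps35, Mrpl30 and Mrpl55 did not (adjusted p = 0.0507, 0.0557 and 0.0535).

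The 2 subunits of the ribosome had close medians. The median change in PlGF versus control was −0.19 over the 48 large subunit genes, of which 3 fell, and −0.20 over the 29 small subunit genes, of which 3 fell. The large subunit median less the small subunit median was 0.0048. On PlGF replicate 1 the large subunit stood at −0.24 and the small at −0.21, and on PlGF replicate 2 at −0.12 and −0.21. When Mrps30 and Mrps18a were counted with the large subunit, where their proteins sit, and Mrps36 was left out, the medians were −0.19 over 50 genes and −0.19 over 26. By origin, the 46 genes with a bacterial counterpart had a median of −0.19 and the 30 mitochondrion-specific genes one of −0.19, and each class held 3 of the genes that fell. The 6 largest decreases, those of Mrps35, Mrps30, Mrps31, Mrpl39, Mrpl42 and Mrpl50, were all in the second class, in which 22 of 30 genes had both PlGF arrays below every control array, against 25 of 46 in the first.

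**Figure D3:**
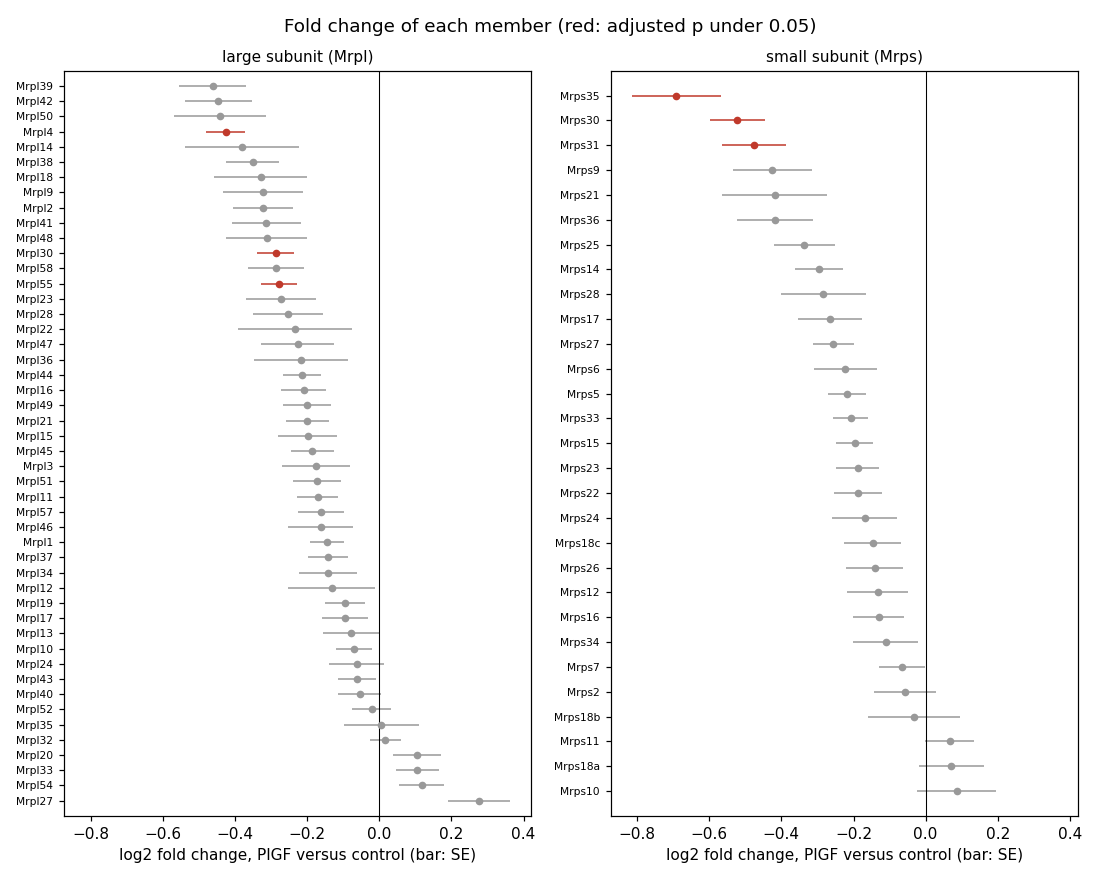
Log2 fold change in PlGF versus control (points) with its SE (bars) for each of the 48 large subunit and 29 small subunit genes, in order; red marks an adjusted p under 0.05 in limma. Values run from −0.69 for Mrps35 to 0.28 for Mrpl27, and several genes with larger changes than Mrpl55 (−0.28) have larger errors and did not pass.

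Several mitochondrion-specific large subunit genes had changes as large as those of the called genes and did not pass. Mrpl39 read 1462 and 1804 on the PlGF arrays and 2089, 1935 and 2058 on the arrays labelled PlGF/RGS4, against 2158, 2335 and 2225 on the control arrays, a log2 fold change of −0.46 ± 0.092 in PlGF versus control (limma, adjusted p = 0.0501). Mrpl42 read 837 and 991 on the PlGF arrays, against 1148, 1251 and 1333 on the control arrays (−0.45 ± 0.092, limma adjusted p = 0.0557). Mrpl50 read 654 and 917 on the PlGF arrays, against 1061, 1005 and 1091 on the control arrays (−0.44 ± 0.13, limma adjusted p = 0.105). In Mrpl39, Mrpl42 and Mrpl50 PlGF replicate 1 was the lowest of the 8 arrays and the groups PlGF and control did not overlap. The 41 members not chosen by role, p or rank ran from −0.42 (Mrps9) to 0.10 (Mrpl20) in PlGF versus control, 38 of them below 0, and in 27 both PlGF arrays were below every control array.

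The stalk of the large subunit, which recruits the translation factors, showed less. Mrpl10, its base, read 1631 and 1569.5 on the PlGF arrays and 1772, 1809.9 and 1779 on the arrays labelled PlGF/RGS4, against 1743, 1670.0 and 1628 on the control arrays. Mrpl12, which binds to that base, read 1169 and 1307 on the PlGF arrays, against 1616, 1229.9 and 1250.3 on the control arrays. In both genes PlGF and control overlapped, and the changes in PlGF versus control were −0.070 ± 0.051 and −0.13 ± 0.12 (limma, adjusted p = 0.441 and 0.541). For Mrpl12 control replicate 1 was the highest of the 8 arrays. Mrpl11, at the foot of the stalk, read 634 and 578 on the PlGF arrays, against 695, 673 and 676 on the control arrays, with no overlap (−0.17 ± 0.057, limma adjusted p = 0.139).

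Mrpl45, which holds the ribosome to the inner membrane, read 697 and 674 on the PlGF arrays, against 799, 749 and 791 on the control arrays, a change of −0.19 ± 0.059 (limma, adjusted p = 0.130). Mrpl58, a release factor relative built into the large subunit, read 892 and 1018 on the PlGF arrays, against 1246, 1148 and 1100.2 on the control arrays (−0.29 ± 0.077, limma adjusted p = 0.0922). Neither gene had a PlGF array within the control range. Mrpl16 read 1188 and 1332 on the PlGF arrays and 1477, 1560.4 and 1484 on the arrays labelled PlGF/RGS4, against 1467, 1475 and 1422 on the control arrays. Here the arrays labelled PlGF/RGS4 were all above the controls and the PlGF arrays all below them.

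Among the genes whose human counterparts are mutated in mitochondrial disease with cardiomyopathy, none passed. Mrps14 read 247 and 271 on the PlGF arrays and 313, 319.5 and 301 on the arrays labelled PlGF/RGS4, against 309, 336 and 309 on the control arrays, a log2 fold change of −0.30 ± 0.066 in PlGF versus control (limma, adjusted p = 0.0638). Mrpl44 read 228 and 245 on the PlGF arrays, against 277, 275 and 269.7 on the control arrays (−0.21 ± 0.052, limma adjusted p = 0.0752). Mrps22 read 430.4 and 419 on the PlGF arrays, against 508, 487 and 457 on the control arrays (−0.19 ± 0.065, limma adjusted p = 0.152). In these 3 genes PlGF and control did not overlap. Mrpl3 did overlap, since PlGF replicate 2 read 2136, inside the control values of 2132, 2159 and 2132, whereas PlGF replicate 1 read 1682 (−0.18 ± 0.093, limma adjusted p = 0.306).

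The named small subunit genes included parts of the decoding site and of the path of the messenger RNA. Mrps12, part of the decoding centre, read 156 and 169 on the PlGF arrays, against 196, 172 and 167 on the control arrays, with overlap (−0.13 ± 0.084, limma adjusted p = 0.377). Mrps5 read 750 and 742 on the PlGF arrays and 789, 835 and 765 on the arrays labelled PlGF/RGS4, against 854, 868 and 881 on the control arrays (−0.22 ± 0.053, limma adjusted p = 0.0752). Mrps27, a pentatricopeptide repeat protein that binds RNA, read 351 and 344 on the PlGF arrays and 384, 384 and 362 on the arrays labelled PlGF/RGS4, against 425, 396 and 424 on the control arrays (−0.26 ± 0.056, limma adjusted p = 0.0623). For Mrps5 and Mrps27 the 3 groups stood in the same order with no overlap. Mrps34 read 451 and 402 on the PlGF arrays, against 500.2, 448 and 434 on the control arrays, and overlapped. Mrps33 read 1128 and 1177 on the PlGF arrays and 1325, 1403 and 1359 on the arrays labelled PlGF/RGS4, against 1325, 1342 and 1325 on the control arrays (−0.21 ± 0.049 in PlGF versus control, limma adjusted p = 0.0713).

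The Mrps18 paralogs split. Their proteins take different places in the mammalian ribosome, that of Mrps18a in the large subunit and those of Mrps18b and Mrps18c in the small. Mrps18a read 1652 and 1326 on the PlGF arrays, against 1437, 1352 and 1437 on the control arrays. Mrps18b read 1411 and 1034 on the PlGF arrays, against 1191, 1203 and 1315 on the control arrays. Mrps18c read 752 and 654 on the PlGF arrays, against 776, 824 and 733 on the control arrays. For both Mrps18a and Mrps18b PlGF replicate 1 was above every control array and PlGF replicate 2 below every one, so that their mean changes of 0.072 ± 0.091 and −0.032 ± 0.13 average opposite values (limma, adjusted p = 0.672 and 0.906). Mrps36, despite its symbol, encodes a component of the α-ketoglutarate dehydrogenase complex of the citrate cycle and not a ribosomal protein. It read 574 and 686 on the PlGF arrays, against 794, 837 and 888 on the control arrays (−0.42 ± 0.10, limma adjusted p = 0.0785).

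Of the 9 members above 0, none passed. Mrpl27 read 869 and 719 on the PlGF arrays and 717, 683 and 689 on the arrays labelled PlGF/RGS4, against 685, 649 and 623 on the control arrays, a log2 fold change of 0.28 ± 0.086 in PlGF versus control (limma, adjusted p = 0.122). A second, dimmer probe set with the same symbol read 362 and 269 on the PlGF arrays, against 316, 274 and 297 on the control arrays, and so overlapped, with a difference of 0.080. Mrpl54 read 652 and 657 on the PlGF arrays and 696, 652 and 652 on the arrays labelled PlGF/RGS4, against 628, 567 and 618 on the control arrays (0.12 ± 0.062, limma adjusted p = 0.303). Mrpl33 and the small subunit genes Mrps10 and Mrps11 had changes of 0.11 ± 0.060, 0.086 ± 0.11 and 0.066 ± 0.069. In Mrpl33, Mrps10 and Mrps11 replicate 1 was the high PlGF array, and in none were the groups separate.

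A second gene whose probe sets disagreed was Mrpl51. The brighter set, which stands for the gene in the counts, read 2169 and 2289 on the PlGF arrays, against 2572, 2399.6 and 2567 on the control arrays, a difference of −0.17. The dimmer set read 944 and 1191 on the PlGF arrays, against 1579, 1463 and 1538 on the control arrays, a difference of −0.52. Of the 8 members with several probe sets, those of Mrps5 read −0.22 and −0.11, those of Mrps36 −0.42 and −0.47, and those of Mrpl23, Mrpl41, Mrpl47 and Mrps33 lay closer to each other than the sets of Mrps36. Some mitochondrial ribosomal protein genes have processed pseudogenes, and signal from such a copy cannot be told apart from that of the gene.

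The arrays labelled PlGF/RGS4 lay close to control. In PlGF/RGS4 versus control 0 of the 77 members passed in limma and 6 were lower and 2 higher at an unadjusted p under 0.05; over all genes 3 of 19933 passed, or 0.0151%, all higher, and 2.28% were lower and 2.74% higher at the unadjusted threshold. The median change of the members was −0.031, where that of all genes was 0.0030. All 3 arrays were below every control array for 17 members (5.85% of all genes) and above every one for 5 (6.96% of all genes). Besides Mrps30, Mrps27 and Mrps5, named above, the members with the smallest p were Mrps23, Mrpl13 and Mrpl54. Mrps23 read 1948, 2106 and 1979.7 on the arrays labelled PlGF/RGS4, against 2338, 2226 and 2130.2 on the control arrays (−0.15 ± 0.054, limma adjusted p = 0.945). Mrpl13 read 689, 705 and 635 on the arrays labelled PlGF/RGS4, against 823, 709 and 771 on the control arrays (−0.18 ± 0.071, limma adjusted p = 0.957). These groups are separate in both genes, in Mrpl13 only by 705 against 709.

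In PlGF versus PlGF/RGS4, which shares the PlGF arrays with the first comparison, 1 member fell, Mrpl4, at −0.36 ± 0.053 (limma, adjusted p = 0.0305). That call was lost when any 1 control array or any 1 array labelled PlGF/RGS4 was left out. Without a PlGF array that group holds 1 array, so only the size of the change is given. Over the fits that left out 1 array the change of Mrpl4 ran from −0.38 to −0.35. In the main fit 1.19% of all genes passed, 0.0853% lower and 1.10% higher. At an unadjusted p under 0.05, 33 members were lower (10.6% of all genes) and 0 higher (8.95% of all genes), and the median was −0.17 over the members and −0.032 over all genes. Both PlGF arrays lay below all arrays labelled PlGF/RGS4 for 46 members (19.9% of all genes) and above them for 2 (12.6% of all genes). The next smallest p belonged to Mrps33 (−0.24 ± 0.049, limma adjusted p = 0.0717), Mrpl30 (−0.23 ± 0.052, adjusted p = 0.0928), Mrps30 (−0.33 ± 0.076, adjusted p = 0.0960), Mrps35 (−0.52 ± 0.12, adjusted p = 0.103) and Mrpl16 (−0.26 ± 0.063, adjusted p = 0.106). Mrpl36, a short zinc-binding protein of the large subunit, read 761 and 1038 on the PlGF arrays and 1254, 1074 and 1182 on the arrays labelled PlGF/RGS4, against 1048, 979 and 1076 on the control arrays. It was thus separate from the arrays labelled PlGF/RGS4 and overlapped control.

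The PlGF replicates did not carry the difference equally. PlGF replicate 1 was below every control array for 57 members (74.0%, against 43.5% of all genes) and above every one for 10. PlGF replicate 2 was below every control array for 59 members (76.6%, against 29.0% of all genes) and above every one for 2. The shares of all genes above every control array were not counted for single PlGF arrays. The member median was lower in replicate 1 (−0.22) than in replicate 2 (−0.13). The members also spread more widely in replicate 1, with lower and upper quartiles of −0.44 and −0.050, against −0.23 and −0.083 in replicate 2. So did all genes, with quartiles of −0.19 and 0.10 in replicate 1 and −0.080 and 0.059 in replicate 2. Within arrays of low Xist, PlGF replicate 1 less control replicate 2 gave a member median of −0.22 with 61 of 77 below 0. Within arrays of high Xist, PlGF replicate 2 less the mean of control replicates 1 and 3 gave −0.17 with 73 of 77 below 0, where the medians of all genes were −0.044 and −0.00020. All 29 small subunit genes were below 0 in the second of these.

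The partners of the ribosome in mitochondrial translation are listed by role. Of 16 translation factors listed 15 were measured, with a median change of −0.22 in PlGF versus control. Of the 15, 1 fell (0.748% of all genes) and 9 were lower at an unadjusted p under 0.05 (11.7% of all genes). The gene that fell was Tufm, the elongation factor that brings aminoacyl-tRNA to the ribosome, which read 1457 and 1549 on the PlGF arrays and 1780.2, 1936 and 1826 on the arrays labelled PlGF/RGS4, against 1843, 1901 and 1955 on the control arrays (−0.34 ± 0.059, limma adjusted p = 0.0393). Of 21 mitochondrial aminoacyl-tRNA synthetases measured among 22 listed, 1 fell and 10 were lower at the unadjusted threshold, with a median of −0.17. It was Yars2, the enzyme that charges tyrosine tRNA, with 391 and 413 on the PlGF arrays and 476, 476 and 469 on the arrays labelled PlGF/RGS4, against 560.4, 575 and 568 on the control arrays. Its 3 groups were far apart for their spread, and the change in PlGF versus control was −0.50 ± 0.048 (limma, adjusted p = 0.00797).

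All 24 genes for ribosome assembly and rRNA modification were measured and none passed. At the unadjusted threshold 12 were lower (11.7% of all genes), and the median was −0.19. All 24 had negative changes, as had 11695 of all 19933 genes. Among the 24 were Fastkd2, an RNA-binding protein of the assembly granules (−0.28 ± 0.064), and Noa1, a GTPase needed for the small subunit (−0.35 ± 0.099). Of 6 ribosome proteins that carry other symbols, 4 were measured. Dap3 and Ptcd3, both small subunit proteins, had changes of −0.38 ± 0.095 and −0.35 ± 0.071 (limma, adjusted p = 0.0809 and 0.0543). Of the 10 genes measured among 11 listed for transcription and replication of mitochondrial DNA none passed, and 0 were lower at the unadjusted threshold in limma (11.7% of all genes were), although 9 of the 10 changes were negative, with a median of −0.087. The lowest was that of Mterf2, a factor that binds mitochondrial DNA, at −0.34 ± 0.20 (limma, adjusted p = 0.337). Lists were not tested against each other. Tfam, which packages mitochondrial DNA, read 311 and 327 on the PlGF arrays and 327, 331 and 322 on the arrays labelled PlGF/RGS4, against 327, 324 and 371 on the control arrays. Polrmt, the RNA polymerase of mitochondria, had a change of −0.079 ± 0.052.

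The 81 nuclear genes of the respiratory chain had a median of −0.21 in PlGF versus control. Of these, 3 fell (0.748% of all genes) and 43 were lower at the unadjusted threshold (11.7% of all genes). Their medians on the PlGF arrays were −0.31 and −0.073, a wider gap between replicates than the −0.22 and −0.13 of the mitochondrial ribosomal proteins. The 53 cytosolic ribosomal proteins, those of the separate ribosome of the cytosol, had a median of 0.057, with 0 called and 42 of 53 above 0. At the unadjusted threshold 4 of the cytosolic genes were higher (10.9% of all genes) and 1 lower. In PlGF/RGS4 versus control 37 of the 53 were above 0. Against the control mean, their medians were 0.065 and 0.035 on the PlGF arrays and 0.049, 0.0039 and 0.025 on the arrays labelled PlGF/RGS4. The control arrays stood at 0.038, −0.051 and 0.012, so that PlGF replicate 2 lay within the control range.

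Of 10 regulators of nuclear mitochondrial genes none passed in limma. The unadjusted threshold gave 4 lower (11.7% of all genes) and 0 higher (10.9% of all genes). Of the 10, 7 had negative changes and 3 positive ones. The highest was that of the transcription factor Myc, which read 307 and 122 on the PlGF arrays, against 116.4, 115.2 and 107.7 on the control arrays (0.77 ± 0.33, limma adjusted p = 0.227), with most of the difference on replicate 1. Ppargc1a, a coactivator that drives such genes, read 1524 and 2281 on the PlGF arrays and 2796, 2460.0 and 2562 on the arrays labelled PlGF/RGS4, against 3031, 4519.7 and 5766 on the control arrays (−1.20 ± 0.27, limma adjusted p = 0.0646). The controls themselves were widely spread. Nrf1, a factor that binds the promoters of many respiratory genes, had a change of −0.034 ± 0.047, and Gabpa, an ETS family factor with the same kind of targets, one of −0.21 ± 0.074 (limma, adjusted p = 0.698 and 0.155).

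The promoters were read because 68 of the 77 members had changes of the same sign in PlGF versus control and because the letters bound by such factors are known. RefSeq promoters of the GRCm38.p6 mouse assembly, each with 250 bases before and 50 after the gene start, were found for 68 of the 77 members, in 74 sequences. The core of NRF1 is GCGCA and GCGC with 1 free letter between them. It stood on either strand in 13 of the 74 (17.6%) and in 4.60% of all 32851 promoters of the same length. CCGGAAG, the core of GABPA, stood in 25 (33.8%, against 8.86% of all), and AANATGGCG, the core of YY1, in 11 (14.9%, against 2.38% of all). The YY1 letters hold those of a start codon, and matches of different motifs were allowed to overlap. Shares over all promoters include genes below the median level, where no member lies. Promoters of genes above that level were not counted apart. TCAAGGTCA, bound by the estrogen-related receptors, stood in 0 of the 74 (0.423% of all) and the E-box CACGTG in 7 (9.46%, against 7.15% of all). Counted per gene, the E-box stood before 5 of the 68 members (7.35%, against 8.09% of all genes), so that its order turned, while the shares for NRF1 (19.1% against 5.19%), GABPA (36.8% against 9.93%) and YY1 (16.2% against 2.76%) kept theirs. A match of letters is a description, and binding was not measured. Sequences are written on the strand of the gene, and that of Mrpl30 holds the NRF1 core on the opposite strand. The sequences below show the match in capitals in members of each kind: Mrpl30 and Mrps30 fell, Mrpl39 and Mrpl44 had arrays apart from control without passing, and in Mrpl3 and Mrpl32 PlGF and control overlapped.
Mrpl30, NRF1 core, chr1:37890386-37890411, plus strand, match at −83 from the gene start: acgccgctGCGCCTGCGCtgtcttct
Mrpl39, NRF1 core, chr16:84735352-84735377, minus strand, match at −125: ggagaggcGCGCATGCGCccccgcgt
Mrpl44, NRF1 core, chr1:79775975-79776000, plus strand, match at −35: aagcacttGCGCACGCGCagtacact
Mrpl32, NRF1 core, chr13:14613107-14613132, minus strand, match at −87: tgacccttGCGCATGCGCaagagggg
Mrpl3, GABPA core, chr9:105053240-105053265, plus strand, match at −19: agaaacggaCCGGAAGtggcccggct
Mrps30, YY1 core, chr13:118387220-118387245, minus strand, match at 15: ggcgggcgAAAATGGCGgcggccagg

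Of the 4 called members with a promoter in the table, 1 held the NRF1 core (Mrpl30), 1 the YY1 core (Mrps30) and none the GABPA core. Mrpl32, with 1 NRF1 core that reads the same on both strands, read 341 and 331 on the PlGF arrays, against 331, 331 and 334 on the control arrays. Its value was exactly 331.3 on 6 arrays, a tie described below. The NRF1 core stood before Mrpl30, which fell, and before Mrpl32, in which PlGF and control overlapped. Whether the motifs or the ties have a part in the changes was not tested.

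The deposited values hold many exact ties. Mrpl32 read 331.3 on 6 of the 8 arrays, and Mrpl17 read 519.9 on 4 of them. In 25 of the 77 members 2 or more arrays had the same value to 1 decimal, and in 17 members this happened within a group. Over all genes the shares were 56.2% and 32.4%, and over genes above the median level 37.4% and 18.6%, against 32.5% and 22.1% of the members. Ties within a group lower its spread, and their part in the tests was not tested.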

How the data were processed

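The 8 left ventricular RNA samples had been hybridised to Affymetrix Mouse Gene 1.0 ST arrays. The authors deposited linear intensities per probe set, made with MAS5 per the labels and scaled globally per the study's methods; no detection calls or genome build are given in the sources used here. Intensities ran from 7.1 to 21704 and array medians from 111 to 115. Platform symbols named 1 gene for 21780 of 28440 probe sets, several for 1618 and none for 5042, and 1 member probe set with several symbols was left out. The brightest probe set stood for each of 19933 genes.

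Values were taken as log2(intensity + 1) and fitted with limma 3.58.1 in R 4.3.3 (lmFit and eBayes, 3 group means, 5 residual degrees of freedom), with Benjamini-Hochberg adjustment over all genes and a threshold of 0.05. Fold changes are on that scale and the number of arrays limits their precision. Nothing states which animals or litters the arrays share beyond the word biological, so p-values measure the spread between these arrays. Scripts were tested on simulated data. Alternatives covered normalization, pseudocount, probe set choice, filter, variance model, blocks and each array left out.

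Genes named in the text are the 6 members with the smallest p per comparison, the 3 highest and 3 lowest per subunit, members with fixed roles, and up to 4 genes of each other list; Mrpl17, Mrpl20, Mrpl32, Mrpl51, Mrps9, Mterf2 and Myc and the probe set comparisons were added after their values were seen. Members and lists were chosen with earlier results of these data known.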

Additional observations from a re-analysis of the deposited data

Results flagged for a closer look

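Mrpl4 was the member in which the effect in the PlGF arrays differed from that in the arrays labelled PlGF/RGS4, both measured against control, by a test of the difference itself. The difference was −0.36 on the log2 scale (limma, adjusted p = 0.0305 over all genes), with both PlGF arrays below all 3 arrays labelled PlGF/RGS4. Fits that left out 1 array gave −0.38 to −0.35. The call was lost without any 1 control array or any 1 array labelled PlGF/RGS4. Without a PlGF array that group holds 1 array, so only the size of the difference is given.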

How the results depend on the processing

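The negative median of the members in PlGF versus control held under every alternative run, while the number of members past the threshold did not. Centring each array on its median called 12 members, with a median of −0.25 against −0.081 over all genes, and 317 of all genes lower and 376 higher, where the main values were 149 and 356. Array weights called 0 members and 131 genes, a limma fit of only the 2 groups 0 and 0, and the methods' t test 0 and 4; at an unadjusted p under 0.05 these left 26, 35 and 27 members lower. The replicate number as a block called 0 members (34 lower unadjusted) and 27 genes. For arrays of different groups with the same number, deviations from the group means had correlations from −0.22 to 0.30. Those with different numbers had −0.24 to 0.22. The deviations of the 2 PlGF arrays mirror each other, so these values cannot tell whether a number marks a shared batch or litter. Sex as a block called 3 members (Mrpl4, Mrps30 and Mrps31). Leaving out single arrays, the counts ran from 0 to 45 members and from 17 to 5921 genes, the median from −0.22 to −0.13, and the large less the small subunit median from −0.029 to 0.087.

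In PlGF/RGS4 versus control the 2-group fit, the t test, the replicate block and the sex block called 0 genes, and leaving out arrays 0 to 1; members stayed at 0, with medians from −0.051 to −0.0092. In PlGF versus PlGF/RGS4, log2(intensity + 16) called 138 genes, genes above the median level 110, the 2-group fit 1, the t test 5 and the replicate block 26; the last 3 and array weights called 0 members. Centring gave a member median of −0.21. Leaving out arrays gave 11 to 5591 genes, 0 to 38 members and medians from −0.20 to −0.11. The cause was not tested.

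With single arrays left out, the sign of 10 of the 77 members turned in PlGF versus control, of 31 in PlGF/RGS4 versus control and of 14 in PlGF versus PlGF/RGS4. Among those that the naming rule chose, leaving out arrays gave, in PlGF versus control, −0.44 to 0.0066 for Mrpl36, −0.083 to 0.25 for Mrps10, −0.010 to 0.14 for Mrps11, −0.087 to 0.23 for Mrps18a and −0.26 to 0.19 for Mrps18b. In PlGF/RGS4 versus control it gave −0.13 to 0.066 for Mrpl12, −0.013 to 0.017 for Mrpl3, −0.048 to 0.011 for Mrpl50, −0.070 to 0.0084 for Mrps11, −0.051 to 0.011 for Mrps14, −0.018 to 0.029 for Mrps18a, −0.094 to 0.0030 for Mrps18b, −0.015 to 0.11 for Mrps34 and −0.079 to 0.039 for Mrps36, and centring gave −0.0029 for Mrpl3. In PlGF versus PlGF/RGS4 it gave −0.15 to 0.010 for Mrpl12, −0.041 to 0.13 for Mrpl33, −0.042 to 0.0054 for Mrpl54, −0.21 to 0.12 for Mrps10, −0.099 to 0.22 for Mrps18a, −0.21 to 0.23 for Mrps18b and −0.17 to 0.026 for Mrps18c; for Mrps18b centring gave −0.035 and the sex block −0.016.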
